A study of Mus musculus with 2 samples.

Results

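A set of 10 regulators of mesenchymal and migratory cell state was described in the mouse embryonic face: Twist1 and Twist2, Snai1 and Snai2, Zeb1 and Zeb2, Prrx1 and Prrx2, and Pax3 and Pax7. They were chosen by name as these 5 pairs of related genes, and each was found by its Ensembl identifier in the deposited gene tables, which made 10 of 43346 Ensembl genes. The rule used no measured value. The tissue was facial prominence dissected from B6NCrl mouse embryos at 14.5 days, when jaws, palate, teeth, muscles and skin of the face are forming, and no treatment, mutation or transgene was named. The series has 1 group of 2 biological replicates and so compares no conditions. In the labels, a sample is a face from 1 embryo taken on its own day, yet the sex field speaks of a pool of males and females. Each library was made from 10.0 ng of total RNA by a SMART-seq protocol, in which RNA is copied into cDNA and amplified, with synthetic spike-in RNAs added.

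Twist1 and Twist2 are basic helix-loop-helix (bHLH) proteins that pair with E proteins, and Snail and Zeb proteins are zinc-finger repressors that bind E-box sequences, among them those of the E-cadherin gene Cdh1. Genes of these families drive epithelial cells, including the neural crest that builds most of the facial skeleton, to leave their layer and become mesenchyme. Prrx1 and Prrx2 are paired-type homeobox genes of that mesenchyme, and Pax3 and Pax7 are paired box genes of neural crest and of muscle progenitors, Pax3 also of the pigment cell precursors called melanoblasts.

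Expected counts, the authors' estimates of reads per gene, totalled 37738872 in replicate 2 and 30919488 in replicate 1. Of these, Ensembl genes held 35690824 in replicate 2 and 29924885 in replicate 1. TPM, the length-normalised abundance scaled to a common total, is the level used throughout. For a transcript with 2000 bases of effective length, 0 counts allowed a level of up to 0.0589 TPM in replicate 2 against 0.0761 in replicate 1. The labels name separate biological replicates, and with a chi-square of 16.4 per degree of freedom over 18123 genes the tables hold 2 different libraries. Counting intervals cover counting error within a library only. No molecular identifiers were used here, so amplified copies could not be told from separate molecules, and these intervals may be too narrow. Errors are SD over both libraries with n = 2, and with 2 samples an exact two-sided test cannot go under p = 0.5, so none was made. All 13 mesenchymal genes on a marker list reached 1 TPM in both libraries, and none of 7 brain genes did. In such bulk tissue, fewer cells of a type and less RNA per cell cannot be told apart.

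All 10 genes were expressed, and 8 of them lay above the median of expressed protein-coding genes. All 10 reached 1 TPM in both libraries, where 63.9% of protein-coding genes did. From high to low, their mean levels ran in the order Prrx1, Snai1, Prrx2, Zeb2, Twist2, Twist1, Snai2, Zeb1, Pax3 and Pax7, and spanned 39.3-fold. The first 8 averaged between 29.6 and 79.5 TPM, above the median of 17.3 TPM of the expressed protein-coding genes, and Pax3 and Pax7 lay below it. Zeb1, the lowest of these 8 by its mean, lay at percentile 65.9 of those genes in replicate 2 and 65.3 in replicate 1. The ranges of both libraries overlapped between Snai1 and Prrx2, between Zeb2 and Twist2, between Twist1 and Snai2 and between Snai2 and Zeb1, so these neighbours in the order did not differ beyond their spread. The other neighbours did not overlap. The 10 genes together made up 348.5 TPM in replicate 2 against 382.8 in replicate 1.

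**Figure D1:**
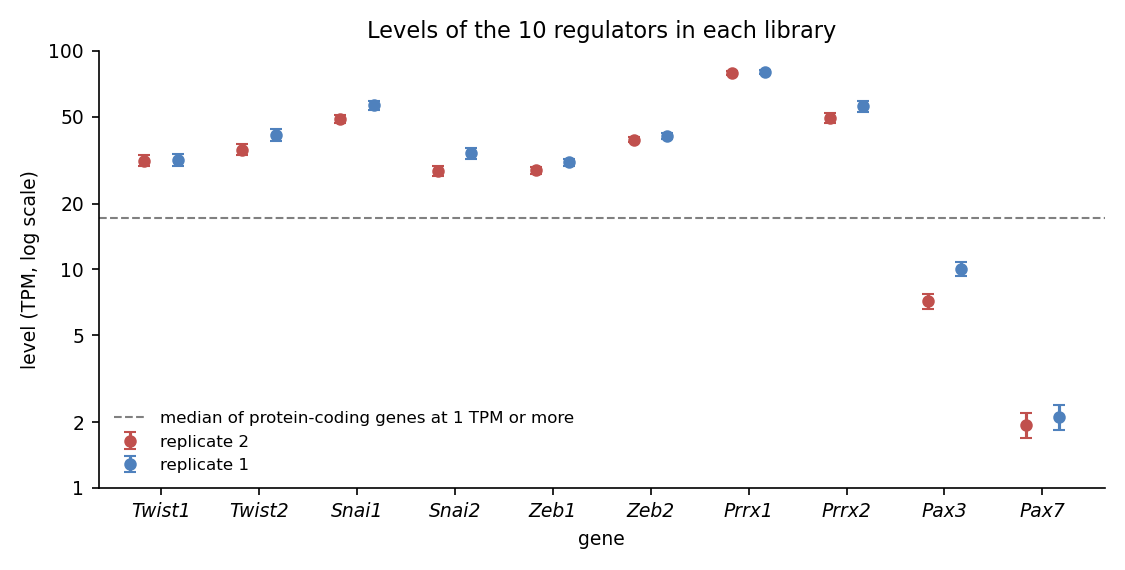
Level of each of the 10 genes in TPM on a log scale, with replicate 2 (red) left of replicate 1 (blue) and exact 95% counting intervals as bars. The dashed line is the median of expressed protein-coding genes, 17.3 TPM; 8 genes lie above it in both libraries, and Pax3 and Pax7 lie below it.

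Twist1, which is mutated in the human craniosynostosis known as Saethre-Chotzen syndrome, had nearly the same level in both libraries. Its gene lies on the plus strand of chromosome 12 (mm10, 33957671 to 33959829), and its level was 31.4 TPM in replicate 2, from 1214 counts, and 31.7 TPM in replicate 1, from 948 counts. Twist2, its relative in dermis and other mesenchyme (chromosome 1, 91801461 to 91848028, plus strand), had 35.3 TPM in replicate 2 against 41.2 in replicate 1. Twist2 was thus higher than Twist1 in each library. Twist1 over Twist2 was 0.889-fold in replicate 2 (counting interval 0.819 to 0.965) and 0.769-fold in replicate 1 (0.703 to 0.841). Twist1 took 45.3% ± 2.54 of the pair's TPM. In expected counts, which also grow with transcript length, the order of the pair was not the same in both libraries, with 51.8% for Twist1 in replicate 2 and 48.2% in replicate 1. Their coding sequences share 84.3% of 483 aligned bases, the closest match among the 5 pairs, but the longest identical run is 23 bases.

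Twist1 has 1 annotated transcript, Twist1-201, with 206 codons. Twist2 has 2, and the 160-codon Twist2-201 took 98.0% of the gene's TPM in replicate 2 and 97.8% in replicate 1. The start of Twist2 overlaps Gm29100, a gene annotated on the opposite strand, and some reads could not be placed in one or the other. In replicate 2, Gm29100 had 78.1 expected counts and Twist2 1128, which are both fractional and sum to the whole number 1206. In replicate 1 they had 80.3 and 1021, with a sum of 1101. Gm29100 took 6.47% of the joint counts in replicate 2 and 7.29% in replicate 1. How many of the reads assigned to Twist2 could also fit Gm29100 is not given. How the authors counted strand is not given in the sources used here, so reads of a gene and of a partner on the opposite strand cannot be told apart. Gm29101, inside an intron of Twist2 on the same strand, had 2.20 TPM in replicate 2 against 2.00 in replicate 1.

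Snai1, the zinc-finger repressor needed for mesoderm formation at gastrulation, was the second highest of the 10 by its mean. The gene (chromosome 2, 167538195 to 167542814, plus strand) had 48.7 TPM in replicate 2, from 1890 counts, and 56.4 TPM in replicate 1, from 1692 counts. Snai2, once called Slug and known from migrating neural crest (chromosome 16, 14705852 to 14709385, plus strand), had 28.3 TPM in replicate 2 against 33.9 in replicate 1. Snai1 was the higher of the pair in each library. Snai1 over Snai2 was 1.72-fold in replicate 2 (1.61 to 1.85) and 1.66-fold in replicate 1 (1.55 to 1.79). The share of Snai1 in the pair's TPM, 62.9% ± 0.586, varied least of the 5 pairs. Each gene has 1 annotated transcript, Snai1-201 with 264 codons and Snai2-201 with 269. The coding sequences are identical at 70.2% of 754 aligned bases.

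The other genes of the Snail superfamily on the list were low. Snai3, of which less is known in development, had 3.27 TPM in replicate 2 against 2.55 in replicate 1. Scrt2 and Scrt1, known from neurons, averaged 0.23 and 0.18 TPM. Only Snai3 of these 3 reached 1 TPM in both libraries.

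Zeb2 was the higher of the Zeb pair in each library. Zeb2, which is mutated in human Mowat-Wilson syndrome (chromosome 2, 44983632 to 45117395, minus strand), had 39.2 TPM in replicate 2, from 4825 counts, and 40.8 TPM in replicate 1, from 4139 counts. Zeb1 (chromosome 18, 5591860 to 5775467, plus strand) had 28.4 TPM in replicate 2 against 30.8 in replicate 1, from 2871 counts in replicate 2 and 2485 in replicate 1. Zeb1 over Zeb2 was 0.724-fold in replicate 2 (0.691 to 0.759) and 0.755-fold in replicate 1 (0.718 to 0.794). Both pairs of E-box repressors thus had summed levels of the same order, 77.0 TPM in replicate 2 against 90.3 in replicate 1 for Snail, and 67.6 TPM in replicate 2 against 71.6 in replicate 1 for Zeb.

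The Zeb genes have the most annotated forms, 11 for Zeb1 and 14 for Zeb2. Zeb1-201, with 1117 codons, took 59.7% of the gene's TPM in replicate 2 and 61.2% in replicate 1. The retained-intron form Zeb1-204 stood at 2.48 TPM in replicate 2, with an interval by the authors of 1.97 to 2.89, and at 4.79 TPM in replicate 1, with 3.97 to 5.40, so these intervals did not meet. Of all transcripts with a mean of 1 TPM or more, 17.0% had intervals that did not meet, 14.4% lower and 2.62% higher in replicate 2. Zeb1-204 made up 8.71% of the gene in replicate 2 and 15.6% in replicate 1. The other Zeb1 forms with a mean of 5% or more were Zeb1-206, Zeb1-203, Zeb1-205 and Zeb1-207, with means of 5.09% to 6.38%. Forms annotated as protein-coding took 68.2% of Zeb1 in replicate 2 and 69.1% in replicate 1.

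Zeb2-201, with 1259 codons, took 51.0% of Zeb2 in replicate 2 and 47.1% in replicate 1. The long form Zeb2-202 took 12.5% in replicate 2 and 18.4% in replicate 1, and its level, 4.89 TPM in replicate 2 (3.47 to 5.71) and 7.52 TPM in replicate 1 (5.92 to 8.34), differed beyond the authors' intervals. The deposited length of Zeb2-202 is 9113 bases, against 5624 bases in the later annotation, so its value holds for the older form alone. Zeb2-213 averaged 9.35% and the retained-intron form Zeb2-209 averaged 6.35%. Protein-coding forms took 88.8% of Zeb2 in replicate 2 and 84.3% in replicate 1.

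Genes that overlap the Zeb genes were assigned few of the joint reads, and how many reads could fit either gene is not given. Zeb2os, antisense to Zeb2, had 33.2 fractional counts in replicate 2 and 33.5 in replicate 1, which summed with those of Zeb2 to the whole numbers 4858 and 4172. Gm10125, on the opposite strand at the start of Zeb1, had 115.1 counts in replicate 2 and 81 in replicate 1, and shared reads with Zeb1 in replicate 2 alone. The counts assigned to Gm10125 were 3.86% of their joint counts in replicate 2. Gm16147, a processed pseudogene within Zeb1, had 1 count in each library. Gm22709 in Zeb1, and Mir5129, Gm27761, Gm27404 and Gm27645 in Zeb2, are short RNAs with 0 counts in both libraries, and per the labels the libraries hold RNA over a size limit.

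Prrx1, which together with Prrx2 is needed for the growth of the lower jaw and limb skeleton, was the highest of the 10. The gene (chromosome 1, 163245119 to 163313710, minus strand) had 78.8 TPM in replicate 2, from 8546 counts, and 80.1 TPM in replicate 1, from 7096 counts. Among expressed protein-coding genes this was percentile 87.5 in replicate 2 and percentile 86.4 in replicate 1. Prrx2 (chromosome 2, 30834972 to 30881251, plus strand) had 49.3 TPM in replicate 2, from 1218 counts, and 55.8 TPM in replicate 1, from 1096 counts. Prrx1 over Prrx2 was 1.60-fold in replicate 2 (1.51 to 1.70) and 1.44-fold in replicate 1 (1.35 to 1.53). In expected counts Prrx1 took 87.1% of the pair, against 60.2% ± 1.80 in TPM, because its transcripts are longer, with an effective length of 4258 bases against 970 for Prrx2 in replicate 2.

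Prrx1 is annotated with 5 forms, of which 3 code for protein and differ at the end of the coding sequence. The forms share their first exons up to the end of the third and then read into different sequence. The ends are shown because the choice among them decides which Prrx1 protein is made. Each line gives the last 30 shared bases in lower case and, in capitals, the rest of the coding sequence with its stop codon, 5′ to 3′ on the minus strand, from GENCODE M21 transcripts (mm10).
Prrx1-201: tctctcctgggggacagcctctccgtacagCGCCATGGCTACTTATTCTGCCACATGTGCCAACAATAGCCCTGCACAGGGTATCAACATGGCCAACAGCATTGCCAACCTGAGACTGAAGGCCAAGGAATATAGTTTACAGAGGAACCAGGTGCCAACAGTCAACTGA
Prrx1-202: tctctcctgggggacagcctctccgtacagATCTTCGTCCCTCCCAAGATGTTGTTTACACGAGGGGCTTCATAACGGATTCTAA
Prrx1-204: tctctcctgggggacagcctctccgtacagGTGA
The capitals of Prrx1-201 lie at chr1:163248258-163248396 in the last exon, and the full form has 245 codons, the length of the protein known as Prrx1b. Those of Prrx1-202 lie at chr1:163253994-163254048, inside an exon of 72 bases that brings its own stop codon, and that form has 217 codons, the length of Prrx1a. Prrx1-204 reads past the end of the third exon into the intron, meets a stop codon at once at chr1:163257757-163257760 and has 200 codons. The capitals of Prrx1-201 hold the OAR motif, a short conserved stretch near the end of many paired-type homeobox proteins, which the shorter forms lack.

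The form with the most codons had the highest level in both libraries, but its lead over the 217-codon form was uneven. Prrx1-201 had 32.9 TPM in replicate 2, with an interval by the authors of 28.4 to 35.5, and 28.4 TPM in replicate 1, with 23.3 to 31.2. Prrx1-202 had 13.3 TPM in replicate 2 (9.43 to 16.8) and 21.4 TPM in replicate 1 (16.8 to 25.4). In replicate 1 the intervals of these forms overlap, so the lead of Prrx1-201 was not resolved there. Of the sum of these forms, Prrx1-201 took 71.1% in replicate 2 and 57.0% in replicate 1. The authors' intervals for each of the forms overlapped between libraries, those of Prrx1-202 only at their ends, so a difference in the choice of exon was not shown. Forms that share most of their length also share most reads, and the interval level is not stated in the files.

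The form that runs on into the intron was lower in replicate 2 by about as much as the usual gene. Prrx1-204, whose last exon spans 5077 bases (chromosome 1, 163252866 to 163257942), had 13.4 TPM in replicate 2 (12.5 to 13.7) and 15.1 TPM in replicate 1 (13.9 to 15.4), or 17.0% of the gene in replicate 2 and 18.8% in replicate 1. These intervals do not meet, but the log2 ratio of TPM + 1, replicate 2 over replicate 1, was -0.16, beside a median of -0.14 over all genes. The non-coding processed transcript Prrx1-205, which also holds the 72-base exon, had 18.2 TPM in replicate 2 (14.6 to 21.2) and 13.6 TPM in replicate 1 (9.74 to 17.1). Both forms that splice in that exon together took 40.0% of the gene in replicate 2 and 43.6% in replicate 1, a smaller difference than that of either form alone. The last exon of Prrx1-204 runs through the same 72 bases, so reads inside them do not separate Prrx1-204 from these forms. The retained-intron form Prrx1-203 took 1.35% in replicate 2 and 2.19% in replicate 1. Protein-coding forms took 75.6% of Prrx1 in replicate 2 and 80.9% in replicate 1.

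Prrx2 is annotated with 4 forms, and a large part of its TPM was assigned to forms that keep an intron. Prrx2-201, with 247 codons, took 49.4% in replicate 2 and 53.7% in replicate 1. The retained-intron forms Prrx2-203 and Prrx2-204 took 31.4% and 10.4% in replicate 2, and 27.5% and 11.2% in replicate 1. Prrx2-202, with 175 codons, took 8.81% in replicate 2 and 7.61% in replicate 1. These forms are short, and in expected counts Prrx2-201 held 70.3% of the gene as the mean of both libraries.

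Within the span of Prrx1 lie Gm26523, a long intergenic non-coding RNA gene on the same strand, Gm37644 on the same strand and Gm20471 on the opposite one. Gm26523 had 8.61 TPM in replicate 2 against 9.43 in replicate 1. Gm20471 had 2.53 TPM in replicate 2 against 3.85 in replicate 1, and Gm37644 had 1.68 TPM in replicate 2 against 1.85 in replicate 1. Their counts and those of Prrx1 were whole numbers in both libraries, so no reads were divided between them. Over all members, 13 annotated genes overlapped 4 of the 10, and 3 of the 13 shared reads with the member.

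**Figure D2:**
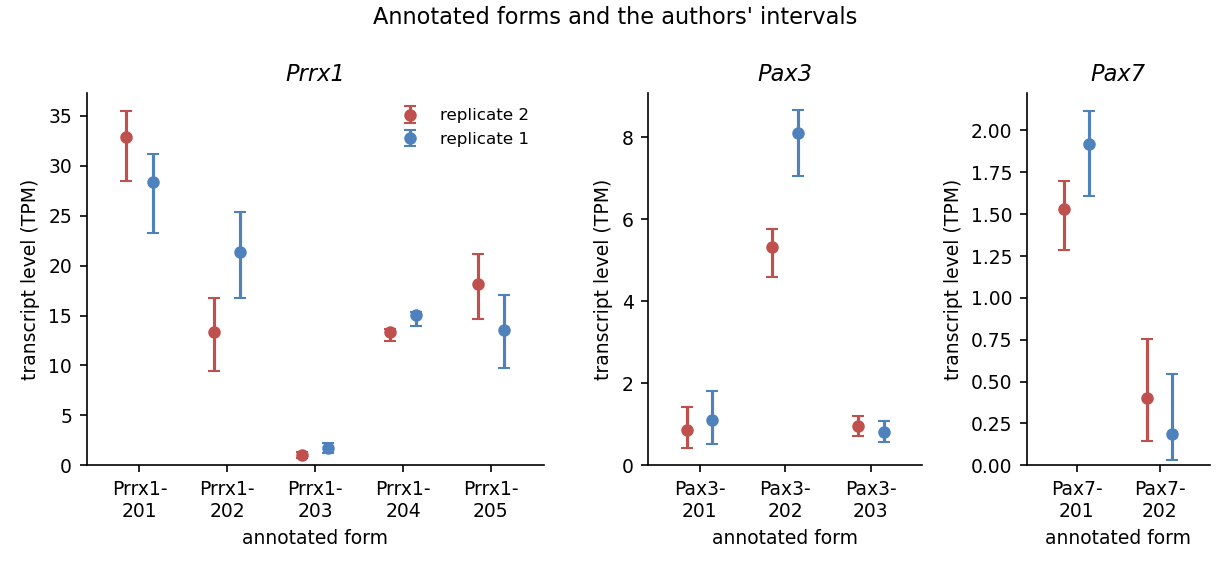
Level in TPM of each annotated form of Prrx1, Pax3 and Pax7, with replicate 2 (red) left of replicate 1 (blue) and the authors' intervals as bars. Between libraries, the bars meet for all forms drawn except Prrx1-204 and Pax3-202, which are lower in replicate 2. Prrx1-201, Pax3-202 and Pax7-201 are the highest forms of their genes in both libraries, but in replicate 1 the bars of Prrx1-201 and Prrx1-202 overlap.

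Pax3 was several times higher than Pax7, and was the gene of the 10 with the largest difference between the libraries. Pax3, mutated in Splotch mice and in human Waardenburg syndrome (chromosome 1, 78101267 to 78197134, minus strand), had 7.15 TPM in replicate 2, from 654 counts, and 10.0 TPM in replicate 1, from 718 counts. Pax7, the marker of muscle stem cells (chromosome 4, 139737062 to 139833528, minus strand), had 1.93 TPM in replicate 2, from 241 counts, and 2.11 TPM in replicate 1, from 224 counts. Pax3 lay at percentile 28.7 of the expressed protein-coding genes in replicate 2 and at 34.7 in replicate 1, and Pax7 at percentile 6.19 in replicate 2 and 6.95 in replicate 1. Pax3 over Pax7 was 3.71-fold in replicate 2 (3.19 to 4.31) and 4.75-fold in replicate 1 (4.09 to 5.55). Pax3 took 80.7% ± 2.74 of the pair's TPM.

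The annotated Pax3 forms differ at the end of the coding sequence after the eighth exon. The ends are shown because they separate the leading form from the other coding form. As before, the last 30 shared bases stand in lower case and the rest of the coding sequence with its stop codon in capitals, on the minus strand from GENCODE M21 (mm10).
Pax3-202: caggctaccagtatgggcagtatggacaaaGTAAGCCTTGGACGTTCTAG
Pax3-201: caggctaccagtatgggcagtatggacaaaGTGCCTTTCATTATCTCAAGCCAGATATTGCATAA
Pax3-202 reads on at chr1:78103308-78103327 without a further splice and has 479 codons, the length of the protein known as Pax3c. Pax3-201 joins the ninth exon, where its capitals lie at chr1:78102801-78102835, and has 484 codons, the length of Pax3d.

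Nearly all of the difference in Pax3 lay in its leading form. Pax3-202 had 5.32 TPM in replicate 2, with an interval by the authors of 4.58 to 5.76, and 8.11 TPM in replicate 1, with 7.06 to 8.65, which do not meet. Pax3-201 had 0.86 TPM in replicate 2 (0.411 to 1.43) and 1.10 TPM in replicate 1 (0.517 to 1.80). Pax3-203, a processed transcript that ends in a 2321-base exon after the fourth exon (chromosome 1, 78183456 to 78185776), had 0.97 TPM in replicate 2 (0.719 to 1.21) and 0.82 TPM in replicate 1 (0.558 to 1.09). The last of these was therefore not lower in replicate 2, though its intervals overlap. The balance of the coding forms was alike, with Pax3-202 at 86.1% of both in replicate 2 and 88.1% in replicate 1.

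Pax7 has an annotated choice of splice site at the start of the fourth exon, near the end of the paired box that binds DNA. The junction is shown with the same stretch of Pax3, in lower case but for the 6 bases of Pax7 in capitals that only the longer form holds, on the minus strand from GENCODE M21 (mm10).
Pax7-201: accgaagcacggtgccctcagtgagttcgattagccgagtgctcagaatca
Pax7-202: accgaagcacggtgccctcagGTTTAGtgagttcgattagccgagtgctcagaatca
Pax3-202: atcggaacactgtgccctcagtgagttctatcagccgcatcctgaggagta
The added bases lie at chr4:139828705-139828710 and lengthen the protein to 505 codons, against 503 in Pax7-201. The Pax3 stretch, at the start of the fourth exon of its leading form, is identical to Pax7-201 at 38 of 51 bases and holds no such addition. Pax7-201 took 79.4% of the gene's TPM in replicate 2 and 90.8% in replicate 1. The forms also differ in their last exon, which has 3841 bases in Pax7-201 and 227 in Pax7-202. These shares are therefore no measure of the splice site alone. In expected counts Pax7-201 held 93.2% in replicate 2 and 97.2% in replicate 1. Pax7-202 rests on 16.4 expected counts in replicate 2 and 6.22 in replicate 1, and the intervals of its level, 0.40 TPM in replicate 2 (0.147 to 0.751) and 0.19 TPM in replicate 1 (0.0345 to 0.544), overlapped, so a difference was not detectable at this depth.

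**Figure D3:**
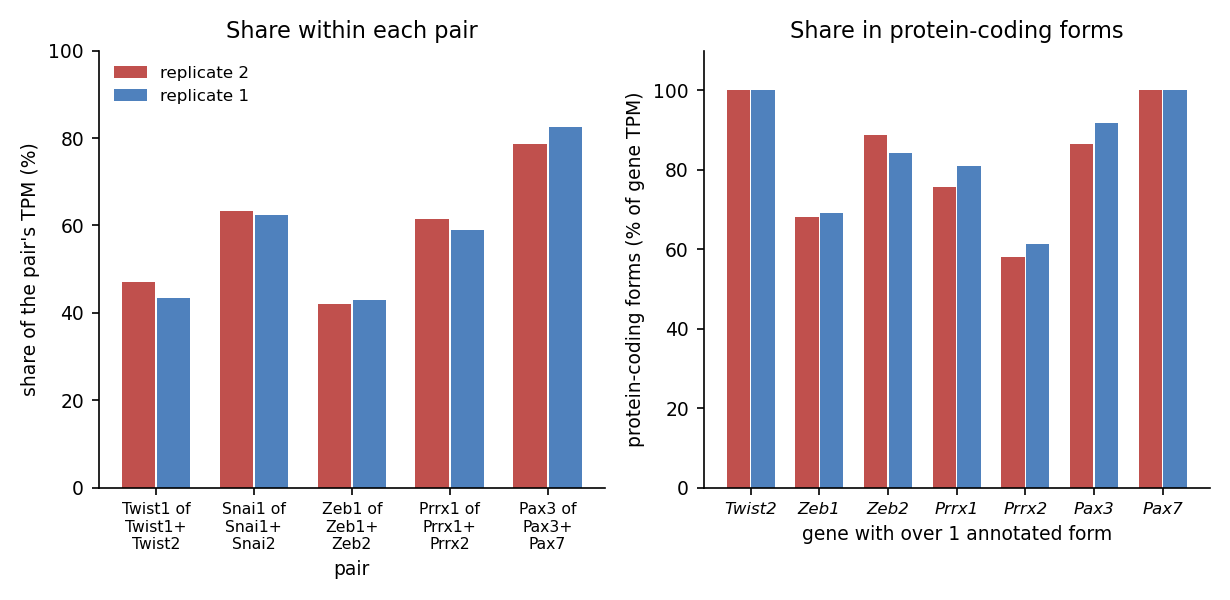
Left, share of the first gene of each pair in the pair's TPM; right, share of each gene's TPM in forms annotated as protein-coding, for the 7 genes with more than 1 form. Replicate 2 (red) stands left of replicate 1 (blue), and pair shares differ between the libraries by little beside the distance from Zeb1 (42.5%) to Pax3 (80.7%).

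Over all 44 annotated forms of the 10 genes, the same form led in both libraries for 10 of 10 genes. Of 29 forms with a mean of 1 TPM or more, the authors' intervals did not meet for 8, against 17.0% of all such transcripts. All 8 were lower in replicate 2, the direction in which most genes differed, and they include the leading forms of Twist2, Snai1, Snai2, Zeb1 and Pax3. No counts were assigned in either library to 3 forms, all of Zeb1 or Zeb2, and 6 forms of these same genes had counts in 1 library only.

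None of the 10 genes differed 1.5-fold or more between the libraries on the scale of TPM + 1, where 5.23% of all genes with a mean of 1 TPM or more did, 2.62% higher in replicate 2 and 2.61% lower. All 10 were lower in replicate 2 in TPM, as were 75.5% of those genes. The median log2 ratio of TPM + 1, replicate 2 over replicate 1, was -0.14 over all these genes, so that a slightly negative ratio is the usual value. It was -0.14 over the 10 genes too, with 5 above and 5 below the median of all genes on this scale. Of all genes past 1.5-fold, 50.1% were higher in replicate 2, but 80.5% were with counts scaled by edgeR's TMM factors and 73.3% with ratios centred on the median, and 43.6% with a pseudocount of 0.1.

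The genes stood on both sides of that shift. Twist1 and Prrx1 had TPM ratios of 0.991 (counting interval 0.909 to 1.08) and 0.983 (0.952 to 1.01), replicate 2 over replicate 1. Zeb2 had 0.962 (0.922 to 1.00), Zeb1 0.922 (0.874 to 0.973) and Pax7 0.915 (0.759 to 1.10). These 5 lay above the median TPM ratio of all genes. Their log2 ratio took both signs over 6 choices of unit, scaling, centring and pseudocount. Centring on the median puts these 5 above 0 by construction. In the other settings Zeb1 and Pax7 stayed below 0, and Zeb2 was above 0 in FPKM only. Twist1 and Prrx1 were above 0 in FPKM and with TMM or DESeq2 factors. With counts scaled by TMM or DESeq2 factors, 3 of the 10 genes lay above the median ratio. Prrx2 had 0.884 (0.814 to 0.960), Snai1 0.864 (0.809 to 0.924), Twist2 0.857 (0.787 to 0.934) and Snai2 0.834 (0.773 to 0.901), and these 4 were below 0 on the log2 scale in all 6.

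Pax3 had the lowest ratio of the 10, at 0.713 (0.640 to 0.794), with an interval that overlaps that of Snai2. Its log2 ratio of TPM + 1 was -0.44, or -0.30 relative to the median of all genes, which put it at percentile 6.62 of the genes compared. Over the 6 settings the log2 ratio of Pax3 ran from -0.48 to -0.30. With 1 library on each side this compares 2 libraries and has no replicate check. The marker lists of cells known to express Pax3 gave medians nearer 0. The muscle progenitor list summed to 534.9 TPM in replicate 2 against 554.6 in replicate 1, with all 16 genes at 1 TPM in both libraries and a median log2 ratio of -0.09. The TPM ratios of its genes ran from 0.742 for Lbx1, within the interval of Pax3, to 1.34. The melanoblast list summed to 89.7 TPM in replicate 2 against 92.5 in replicate 1, with 7 of 9 genes at 1 TPM in both libraries, none at 0, a median of 0.05 and TPM ratios of 0.801 to 2.32. The list of crest-derived glia summed to 49.0 TPM in replicate 2 against 52.1 in replicate 1, with 5 of 5 genes at 1 TPM in both, a median of -0.07 and TPM ratios of 0.809 to 1.38. The part of these cells in the difference of Pax3 was not tested.

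**Figure D4:**
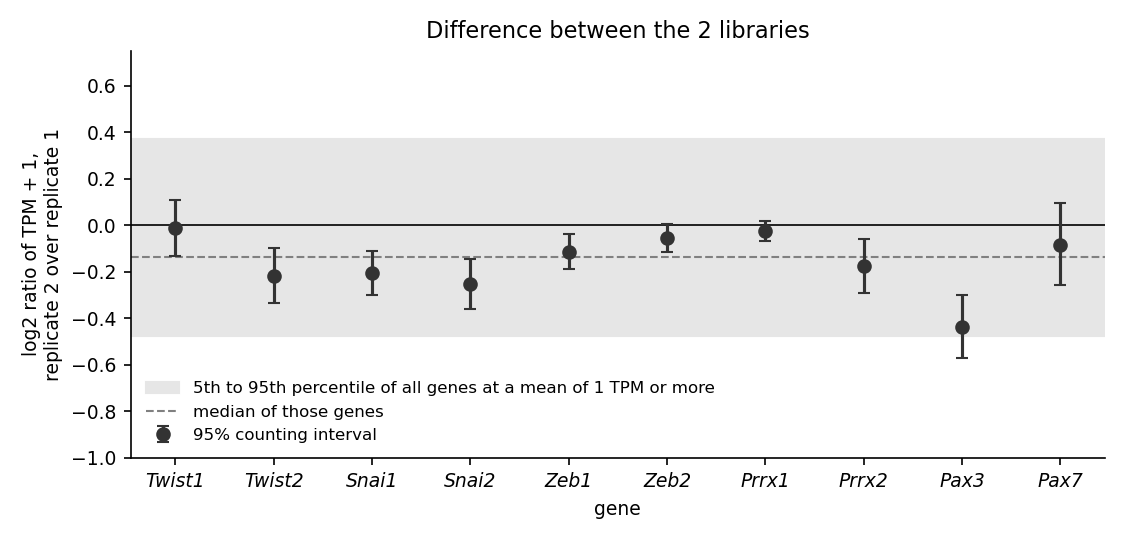
Log2 ratio of TPM + 1, replicate 2 over replicate 1, for each gene, with 95% counting intervals as bars. The grey band spans the 5th to 95th percentile of all genes with a mean of 1 TPM or more (-0.48 to 0.37) and the dashed line is their median, -0.14; Pax3 is lowest, at -0.44, inside the band.

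Genes for the proteins with which Twist, Snail and Zeb factors act were expressed, and the leading ones were higher than each of the 10. Of 14 bHLH partners and relatives of Twist, 13 reached 1 TPM in both libraries, with a median of 28.4 TPM. Id3 and Id2, which bind E proteins and keep them from DNA, had 307.5 and 218.1 TPM in replicate 2, against 329.9 and 237.5 in replicate 1. Tcf4, an E protein that pairs with Twist, had 133.5 TPM in replicate 2 against 168.1 in replicate 1. Ferd3l, a bHLH gene of the nervous system, was the lowest at 0.05 TPM in replicate 2 against 0.13 in replicate 1. All 10 corepressors on the list, which Snail and Zeb proteins recruit to chromatin, reached 1 TPM in both libraries with a median of 46.1 TPM. The deacetylases Hdac2 and Hdac1 averaged 215.2 ± 19.6 and 148.9 ± 18.1 TPM, and Ctbp1, the partner of Zeb proteins, 204.8 ± 29.9 TPM. Ajuba, a LIM protein that binds the SNAG domain of Snail, was the lowest at 7.88 ± 0.891 TPM. On the scale of TPM + 1, no gene of either list was past 1.5-fold, where 5.23% of all genes were. The median log2 ratios of these lists were -0.21 and -0.22, beside -0.14 over all genes.

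Epithelial genes, the classic targets of repression by Snail and Zeb, were expressed in the same tissue at a lower level than mesenchymal ones. Of 20 epithelial genes 19 reached 1 TPM in both libraries, with a median of 16.3 TPM, beside 13 of 13 mesenchymal genes with a median of 224.0 TPM. The simple keratins Krt8 and Krt18 had 87.3 and 54.7 TPM in replicate 2, against 60.9 and 50.7 in replicate 1. The adhesion gene Epcam had 55.5 TPM in replicate 2 against 71.8 in replicate 1, and Marveld3, of the tight junction, was the lowest at 1.51 ± 0.0990 TPM. Cdh1 itself, named outside the rule after its values were seen, had 28.4 TPM in replicate 2 against 38.3 in replicate 1. The mesenchymal list was led by the collagens Col1a1 and Col3a1, at 3276 ± 454.4 and 2952 ± 181.3 TPM, and by the matrix gene Sparc at 2354 ± 209.2 TPM. Cdh2, the N-cadherin gene, was its lowest at 40.0 ± 4.31 TPM.

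The median log2 ratio was -0.01 for the epithelial list and -0.13 for the mesenchymal one. No mesenchymal gene and 2 epithelial genes were past 1.5-fold on the scale of TPM + 1, named here after their values were seen. Ovol2, a repressor of Zeb1 in epithelium, had 2.24 TPM in replicate 2 against 0.92 in replicate 1. Cdh3, the P-cadherin gene, had 8.17 TPM in replicate 2 against 13.7 in replicate 1. These went in opposite directions, and the share past 1.5-fold among all genes was 5.23%.

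Other genes of skull growth and of paired-type homeobox factors were also expressed. All 9 further genes on a list for craniosynostosis, the early closure of skull sutures in which Twist1 is mutated, reached 1 TPM in both libraries with a median of 21.3 TPM. The receptors Fgfr1 and Fgfr2 averaged 102.2 ± 9.04 and 90.1 ± 11.3 TPM, the E protein gene Tcf12 86.3 ± 8.77 TPM, and Msx2, the lowest, 9.05 ± 0.453 TPM. Of 6 paired-type relatives of Prrx that were matched, 4 reached 1 TPM in both libraries. Alx1, needed for the midface, had 29.3 TPM in replicate 2 against 38.1 in replicate 1, and Shox2, of palate and limb, averaged 14.3 ± 0.212 TPM. Rax, an eye field gene, was the lowest at 0.15 TPM in replicate 2 against 0.42 in replicate 1. Prrx1 and Prrx2 were each higher than every one of these relatives in both libraries.

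The leading muscle genes were far above Pax3 and Pax7. Myog, which drives muscle differentiation, had 169.6 TPM in replicate 2 against 177.0 in replicate 1, and Mymk, needed for fusion of muscle cells, had 84.5 TPM in replicate 2 against 73.0 in replicate 1. Lbx1, a homeobox gene of migrating limb and tongue muscle precursors, was the lowest of the 16 at 1.39 ± 0.290 TPM. Melanoblast genes were closer to Pax3 in level, with a median of 6.70 TPM. Ednrb and Kit, receptors needed by melanoblasts but also used by other cells, averaged 37.5 ± 3.98 and 16.4 ± 0.523 TPM, and Sox10, shared with crest-derived glia, 13.0 ± 0.226 TPM. Tyr, the pigment enzyme tyrosinase, was the lowest at 0.975 ± 0.0495 TPM. Tyrp1, named after its values were seen as the only gene of this list past 1.5-fold, beside 5.23% of all genes, lay near the lower limit of the genes compared and had 1.46 TPM in replicate 2 against 0.63 in replicate 1.

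**Figure D5:**
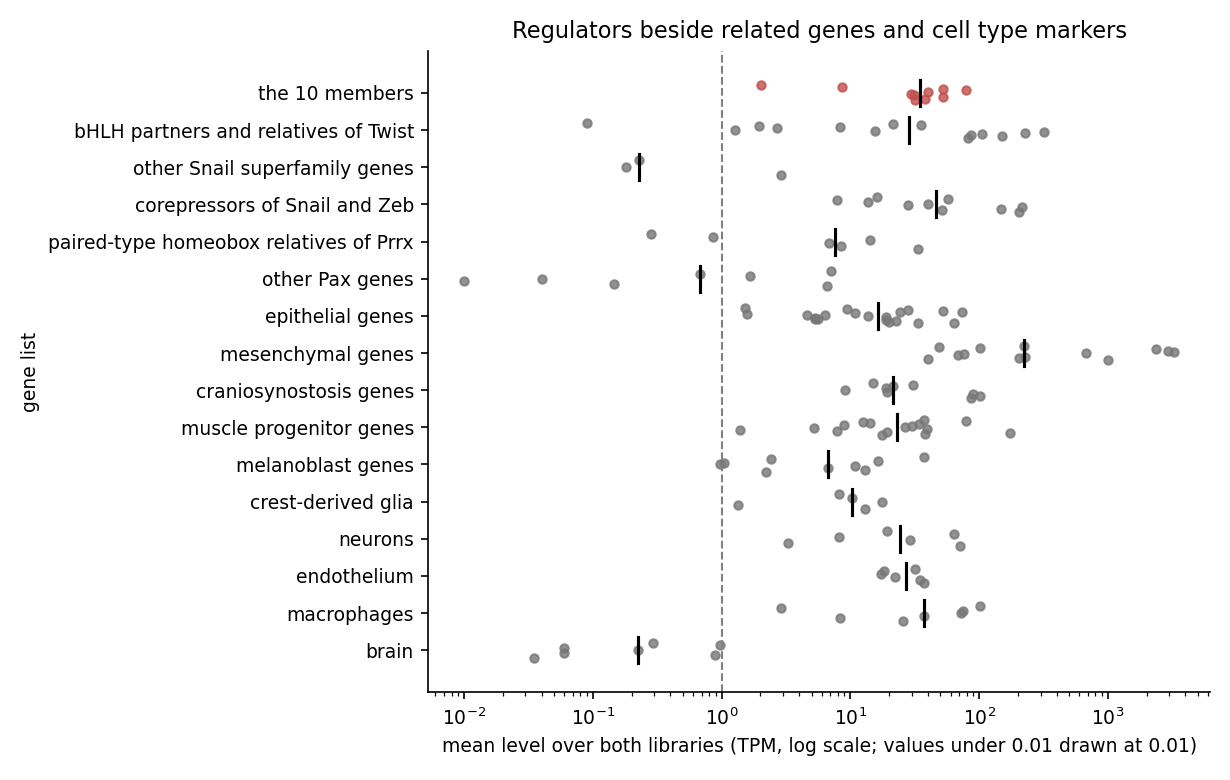
Mean TPM over both libraries, on a log scale, of each gene in 15 lists (grey) below the 10 regulators (red), with the median of each list as a black bar; the dashed line is 1 TPM. Mesenchymal genes lie highest, at a median of 224.0 TPM, the 10 regulators have a median of 34.9 TPM, and all brain genes lie under 1 TPM.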

How the data were processed

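The data are total RNA profiles of mouse facial prominence from 1 group of 2 libraries, numbered as in the labels. Per the text deposited with each library, its gene and transcript tables rest on build mm10 and GENCODE M4, and each library was estimated separately. No aligner, quantifier version or strand setting is given in the sources used here. The expected count of a gene or transcript is the number of reads that the authors estimated for it, per the file headers. TPM values were deposited per gene and transcript beside FPKM values, which served as an alternative. The form shares are a percent of the TPM of the gene, as the authors deposited them. The intervals of transcript TPM are other values that the authors deposited, at a level the files do not state.

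Names, positions, exons and sequences were taken from GENCODE M21, also on mm10, by Ensembl or transcript identifier; all 44 transcripts matched, 35 at the same length. Ratios used log2 of TPM with a pseudocount of 1, which makes ratios of low genes smaller, over genes averaging 1 TPM or more. Counting intervals are exact binomial at the 95% level, on rounded counts. A sum was called whole within 0.02 counts. The self-test of these ratios used simulated data. edgeR 4.0.16 and DESeq2 1.42.0 in R 4.3.3 gave scaling factors only, on rounded counts. The other tools were scipy 1.17.1, Biopython 1.88, pandas 2.3.3, matplotlib 3.10.9 and numpy 2.4.6 under Python 3.11.15.

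The 10 genes and the 15 lists of 136 genes were chosen with earlier results of these data known. The text names all 10 genes, the 3 highest and the lowest of each list, every annotated gene that overlaps one of the 10, all forms of Prrx1 and Pax3 and other forms with a mean share of 5% or more. A few genes picked by this rule are left unreported. No gene was named for a like pattern, since 2 libraries of 1 group give none. Of the listed genes 1, Drgx, was not matched and is not used here. Alternatives were other thresholds, pseudocounts, units, scalings and filters, and each replicate left out.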

Additional observations from a re-analysis of the deposited data

How the results depend on the processing

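No member was past 1.5-fold between the libraries under any setting run. Settings that changed only the fold or the filter on level could not have added a member. The number of all genes past 1.5-fold, 822, was 285 at a fold of 2, 287 with a mean of 5 TPM or more, 1296 with no filter on low values, 1366 with a pseudocount of 0.1, 528 with counts scaled by TMM factors and 527 with counts scaled by DESeq2 size factors. Of these, 61.8% were higher in replicate 2 at a fold of 2, 80.5% with either count scaling, 64.2% in FPKM, 73.3% with centred ratios, 48.4% with a mean of 5 TPM or more, 49.5% with no filter and 43.6% with a pseudocount of 0.1, against 50.1%. The balance of higher and lower genes thus turned with the setting. In expected counts in place of TPM, the share of the first gene of a pair was 50% for Twist1, 57.2% for Snai1, 37.4% for Zeb1, 87.1% for Prrx1 and 74.6% for Pax3. Counts grow with transcript length. Likewise Twist2-201 held 95.9%, Zeb1-201 85.6%, Prrx2-201 70.3% and Pax7-201 95.2% of the counts of their genes. Of the brain genes 2 passed at 0.5 TPM, and leaving out a replicate gave 0 to 2. In counts Twist1 exceeded Twist2 in replicate 2, where TPM gave the opposite order. Depth limits low forms such as Pax7-202, at 16.4 counts in replicate 2 and 6.22 in replicate 1. No paired analysis was possible because there is 1 group, so that no second group shares the replicate numbers.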

Other observations

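Each of the other Pax genes was lower than Pax3 in both libraries. In replicate 2, however, Pax9 lay within the counting interval of Pax3, 6.61 to 7.72 TPM, so their order was not resolved there. Of 7 such genes 3 reached 1 TPM in both libraries. Pax9, a gene of the facial mesenchyme under teeth and palate, had 6.81 TPM in replicate 2 against 7.47 in replicate 1, Pax1, of the pharyngeal pouches and sclerotome, 5.65 TPM in replicate 2 against 7.59 in replicate 1, and Pax6, of eye and nose, 1.38 TPM in replicate 2 against 1.97 in replicate 1. Pax4, of pancreas, had 0 counts in both libraries.

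Markers of further cell types gave the range of cells in the tissue. All 6 endothelial genes reached 1 TPM in both libraries, led by Pecam1, Cdh5 and Emcn at 37.5 ± 2.74, 34.8 ± 0.262 and 32.1 ± 0.629 TPM, with Tek lowest at 17.4 ± 0.304 TPM. All 6 neuronal genes did so, led by Tubb3, Stmn2 and Elavl4 at 71.4 ± 12.9, 63.3 ± 1.90 and 29.0 ± 5.13 TPM, with Elavl3 lowest at 3.30 ± 0.431 TPM. Among 7 macrophage genes, all at 1 TPM in both libraries, C1qb averaged 72.4 ± 4.79 TPM. Lyz2 had 115.6 TPM in replicate 2 against 88.3 in replicate 1, Fcer1g averaged 75.6 ± 0.813 TPM and Ptprc, the lowest, 2.88 ± 0.148 TPM. Of crest-derived glia, Erbb3 had 17.8 ± 0.636 TPM and Sox10 13.0 ± 0.226 TPM, and Foxd3 was lowest at 1.33 ± 0.304 TPM. The brain genes Olig2 and Gfap averaged 0.975 ± 0.120 and 0.295 ± 0.0919 TPM, and Neurod6 0.035 ± 0.0212 TPM.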
